A study of Mus musculus with 6 samples.

Results

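The genes described here are 10 co-receptors, adaptors, kinases and a ubiquitin ligase of Toll-like receptor signalling, Cd14, Ly96, Myd88, Tirap, Ticam1, Ticam2, Irak1, Irak2, Irak3 and Traf6. They were chosen by name, and each had 1 probe set among the 25206 of the deposited array table, so all 10 were measured. The cells were peritoneal macrophages that thioglycollate, an irritant, had drawn into the abdominal cavity of C57BL/6J mice over 4 days. One group came from mice deficient in Tet2 (Tet2-/-), the gene of a dioxygenase that oxidises 5-methylcytosine in DNA, and the other from wild-type littermates. All cells were plated and left without treatment, and total RNA was taken 10 h later. The titles give 3 Tet2-/- and 3 wild-type samples, each group numbered 4, 5 and 6. The labels call them biological replicates but do not tie each to a mouse, and they do not say how the Tet2 allele was made. The p-values therefore cover only the spread among these 6 samples, part of which may be technical.

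The genotype characteristic of 4 of the 6 samples goes against their title. It calls the samples titled Tet2-/- replicates 4 and 6 wild-type, and those titled wild-type replicates 5 and 6 Tet2-/-. Genotypes below are those of the titles, and for the 10 genes the value by the characteristic is given beside each difference whose sign turns with it. Tet2 itself stood at 3.80, 4.05 and 3.67 log2 units in the Tet2-/- samples, against 4.35, 3.74 and 3.79 in wild-type. Its groups overlapped, with a difference of -0.12 (95% confidence interval -0.56 to 0.32), which was 0.075 without wild-type replicate 4. As the labels state neither which part of Tet2 was deleted nor where the probes lie, this level checks no label. The library titled Tet2-/- replicate 6, which is wild-type by its characteristic, stood apart. Its array median was 2.93, against 2.77 to 2.82 for the other 5 arrays, and its interquartile range was 2.99, against 3.16 to 3.33. The 7 measured macrophage markers, among them Adgre1, Csf1r and Cd68, lay between 7.48 and 11.23 in Tet2-/- and between 7.39 and 11.11 in wild-type samples, while the 4 measured T cell markers stayed between 1.43 and 2.51 and between 1.47 and 2.82. The deposited scale runs from 0.19 to 12.21, has no value at 0 and no measured background.

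Toll-like receptors sense microbial molecules at the cell surface or in endosomes and signal through short adaptor proteins that share their TIR domain. Cd14 hands lipopolysaccharide to the complex of Tlr4 and Ly96 (MD-2). Tirap brings Myd88 to receptors at the plasma membrane, and Myd88 assembles IRAK kinases that activate the ubiquitin ligase Traf6 and, through it, NF-kB and MAP kinases. Ticam2 (TRAM) brings Ticam1 (TRIF) to endosomal Tlr4, and Ticam1 drives the interferon response. Irak3 (IRAK-M), which is found mainly in monocytes and macrophages, is best known for restraining the pathway.

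The promoters of 3 of these genes are shown here because Myd88 and Irak3 varied most between the arrays, and Ticam1 ran against them. Each is the stretch of 250 bases before a RefSeq transcription start on build GRCm38.p6, with capitals marking matches on either strand to the motifs searched. These were the NF-kB motif, the interferon-stimulated response element (GAAA, any 2 bases, GAAA), the AP-1 motif TGANTCA and the GC box GGGCGG.
Myd88, chr9:119340019-119340268, minus strand: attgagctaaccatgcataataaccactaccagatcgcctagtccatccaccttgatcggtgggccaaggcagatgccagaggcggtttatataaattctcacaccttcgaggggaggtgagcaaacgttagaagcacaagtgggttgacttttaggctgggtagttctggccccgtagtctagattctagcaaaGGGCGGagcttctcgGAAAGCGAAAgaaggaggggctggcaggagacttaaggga
Irak3, chr10:120202131-120202380, minus strand: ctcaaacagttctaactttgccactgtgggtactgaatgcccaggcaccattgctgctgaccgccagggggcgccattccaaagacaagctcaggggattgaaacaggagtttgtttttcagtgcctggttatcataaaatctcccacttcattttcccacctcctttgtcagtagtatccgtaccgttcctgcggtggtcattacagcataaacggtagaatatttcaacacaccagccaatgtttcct
Ticam1, chr17:56276768-56277017, minus strand: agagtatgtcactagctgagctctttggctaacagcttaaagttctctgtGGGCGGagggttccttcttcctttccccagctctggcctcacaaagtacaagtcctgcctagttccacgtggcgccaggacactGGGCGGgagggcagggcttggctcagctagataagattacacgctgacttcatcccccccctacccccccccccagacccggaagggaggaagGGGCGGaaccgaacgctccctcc
The Myd88 window held 1 interferon-stimulated response element, GAAAGCGAAA, starting 40 bases before the transcription start, a motif present in 2.98% of the 32851 windows of that length. It also held 1 GC box, and the Ticam1 window held 3, where 32.7% of all windows have at least 1. The Irak3 window printed held none of these motifs and 6 CpG dinucleotides, the sites at which mammalian DNA is mainly methylated. A second Irak3 start had 19 CpG dinucleotides and 2 GC boxes, and the Myd88 and Ticam1 windows had 9 CpG dinucleotides each, where the median of all windows was 6. Promoter windows are reported for 7 of the 10 genes. Those of Cd14 and Ticam2 were left out of the results, and no window was matched for Ly96, so nothing is said of these genes. Among those 7, an NF-kB match was found before Irak1 only, where 7.25% of all windows hold one, and no AP-1 match was found, where 6.75% hold one. The matches are letters in these windows and do not show binding.

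No difference between the genotypes passed the test for any of the 10 genes. With limma over all 25206 probe sets, 0 of 10 passed an adjusted p of 0.05, where 0% of all probe sets passed, and 0 of 10 had an unadjusted p under 0.05, where 3.61% of all probe sets did. All 10 had an adjusted p of 0.998, and their unadjusted p ran from 0.203 to 0.971. The two-sided exact permutation test over the 6 samples gave p = 0.3 to p = 1, in a design that cannot go below 0.1. Tet2-/- and wild-type values overlapped for all 10 genes, where 7.41% of all probe sets had groups that did not overlap.

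Of the co-receptors, Cd14, the membrane-anchored protein that delivers lipopolysaccharide, stood at 8.96, 9.01 and 8.63 in Tet2-/- replicates 4, 5 and 6, against 8.84, 8.57 and 8.74 in wild-type replicates 4, 5 and 6. The first 2 Tet2-/- samples were above every wild-type sample and the last was within the wild-type range. Cd14 averaged 8.87 ± 0.206 in Tet2-/- and 8.72 ± 0.137 in wild-type samples (SD, n = 3 each). The log2 difference was 0.15 ± 0.153 (standard error; 95% confidence interval -0.20 to 0.50, limma unadjusted p = 0.351). It was 0.077 without wild-type replicate 5, 0.27 without Tet2-/- replicate 6 and -0.037 grouped by the characteristic. Ly96, the secreted partner that holds the lipid part of lipopolysaccharide beside Tlr4, was at 8.91, 9.30 and 8.95 in Tet2-/- samples, against 9.13, 8.91 and 8.95 in wild-type. Apart from the high Tet2-/- replicate 5 its values interleaved. The Ly96 difference was 0.06 (95% confidence interval -0.29 to 0.40), or 1.04-fold with an interval of 0.819-fold to 1.32-fold, and it was -0.067 without Tet2-/- replicate 5. Their receptor Tlr4, named after its values were seen, likewise overlapped, at 7.36, 6.87 and 6.45 in Tet2-/- and 6.96, 7.0 and 6.64 in wild-type samples.

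**Figure D1:**
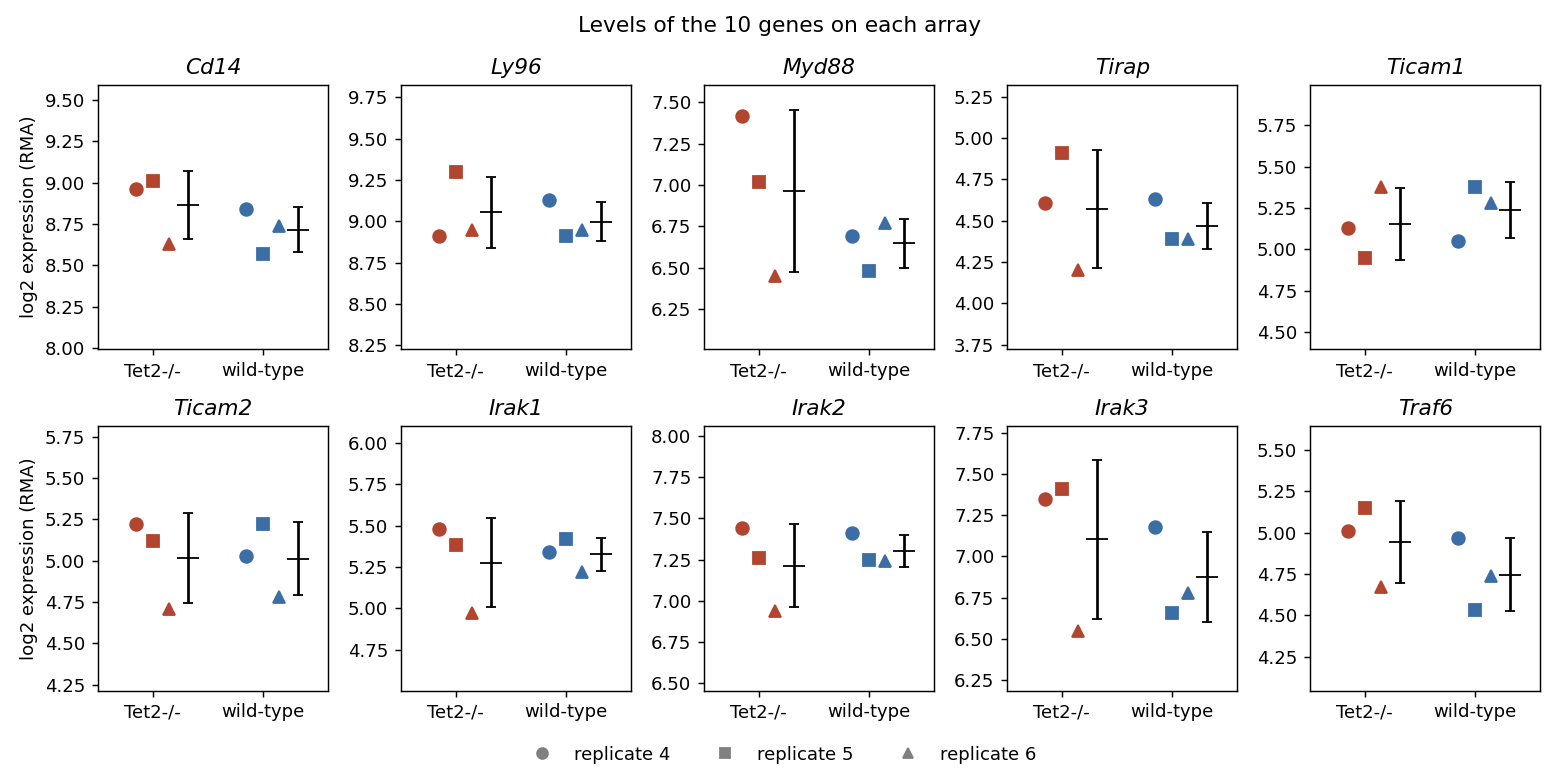
Log2 expression (RMA, vertical axis) of each of the 10 genes in the 3 Tet2-/- samples (red, left) and the 3 wild-type samples (blue, right), with marker shape giving the replicate number and the black bar the mean ± SD. Every panel spans the same number of log2 units, and in every panel the groups overlap.

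Among the adaptors Myd88, which couples nearly all Toll-like receptors and interleukin-1 receptors to the kinases, had the largest difference of the 10 genes. It stood at 7.42, 7.02 and 6.45 in Tet2-/- replicates 4, 5 and 6, against 6.69, 6.48 and 6.77 in wild-type. The first 2 Tet2-/- samples were the highest of the 6 and the third the lowest. The means were 6.96 ± 0.487 in Tet2-/- and 6.65 ± 0.150 in wild-type samples (SD, n = 3 each). The difference was 0.32 ± 0.230 (standard error; 1.25-fold, 95% confidence interval 0.867-fold to 1.79-fold, limma unadjusted p = 0.203). The Myd88 difference was 0.57 without Tet2-/- replicate 6 (limma adjusted p = 0.344, unadjusted p = 0.00724) and 0.09 without Tet2-/- replicate 4. Grouped by the characteristic it was -0.10.

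Tirap, the bridging adaptor that works with Tlr2 and Tlr4, was at 4.61, 4.91 and 4.20 in Tet2-/- samples, against 4.63, 4.39 and 4.39 in wild-type. Tet2-/- samples were both the highest and the lowest, and the difference was 0.10 (95% confidence interval -0.33 to 0.53), or -0.065 without Tet2-/- replicate 5. Ticam2, the bridging adaptor of the interferon branch, had interleaved values, at 5.22, 5.12 and 4.71 in Tet2-/- and 5.03, 5.22 and 4.78 in wild-type samples. The difference of 0.0067 (95% confidence interval -0.40 to 0.41) became -0.02 with arrays centred on their medians and -0.0044 after a further quantile normalization. It ran from -0.11 without wild-type replicate 6 to 0.16 without Tet2-/- replicate 6.

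Ticam1, the adaptor that Tlr3 uses and that Tlr4 uses from endosomes, was the only 1 of the 10 genes with Tet2-/- replicate 6 above both other Tet2-/- samples. It was at 5.13, 4.95 and 5.38 in Tet2-/- replicates 4, 5 and 6, against 5.05, 5.38 and 5.28 in wild-type. Tet2-/- replicate 6 shared the highest value with wild-type replicate 5, where 6 of the other 9 genes had that Tet2-/- sample lowest. With ties counted, 30.8% of all probe sets had Tet2-/- replicate 6 highest. Among the 7501 probe sets whose mean is at or above that of Tirap, the lowest of the 10, the share was 14.9%. The difference was -0.08 (95% confidence interval -0.44 to 0.28), -0.20 without Tet2-/- replicate 6, 0.02 without Tet2-/- replicate 5 and 0.02 grouped by the characteristic.

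Of the kinases, Irak1, an active kinase that binds Traf6, was at 5.48, 5.38 and 4.97 in Tet2-/- samples, against 5.34, 5.42 and 5.22 in wild-type. Irak2, a family member that sustains the late response, was at 7.44, 7.26 and 6.94 in Tet2-/- samples, against 7.41, 7.25 and 7.24 in wild-type. For both genes the wild-type samples lay close together and Tet2-/- replicate 6 lay below all of them. The differences were -0.05 (95% confidence interval -0.42 to 0.32) for Irak1 and -0.09 (95% confidence interval -0.45 to 0.27) for Irak2. Both signs turned without that sample, to 0.10 for Irak1 and 0.05 for Irak2, and with array weights, to 0.08 and 0.03. The Irak1 sign also turned when samples were grouped by the characteristic, to 0.08.

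Irak3, the inhibitory family member, was at 7.35, 7.41 and 6.55 in Tet2-/- samples, against 7.18, 6.66 and 6.78 in wild-type. As for Myd88, Tet2-/- replicates 4 and 5 were the highest of the 6 samples and replicate 6 the lowest. The means were 7.10 ± 0.480 in Tet2-/- and 6.87 ± 0.272 in wild-type samples (SD, n = 3 each). The difference was 0.23 ± 0.244 (standard error; 1.17-fold, 95% confidence interval 0.799-fold to 1.72-fold, limma unadjusted p = 0.372). Irak3 differed by 0.51 without Tet2-/- replicate 6 (limma adjusted p = 0.422), by 0.08 without Tet2-/- replicate 5 and by -0.08 grouped by the characteristic.

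Traf6, the ubiquitin ligase downstream of the kinases, was at 5.01, 5.15 and 4.67 in Tet2-/- samples, against 4.97, 4.53 and 4.74 in wild-type. The same 2 Tet2-/- samples were the highest, with wild-type replicate 4 close below them. The Traf6 difference was 0.20 (1.15-fold, 95% confidence interval 0.871-fold to 1.51-fold, limma unadjusted p = 0.289) and ran from 0.09 without wild-type replicate 5 to 0.33 without Tet2-/- replicate 6. By the characteristic it was -0.08.

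**Figure D2:**
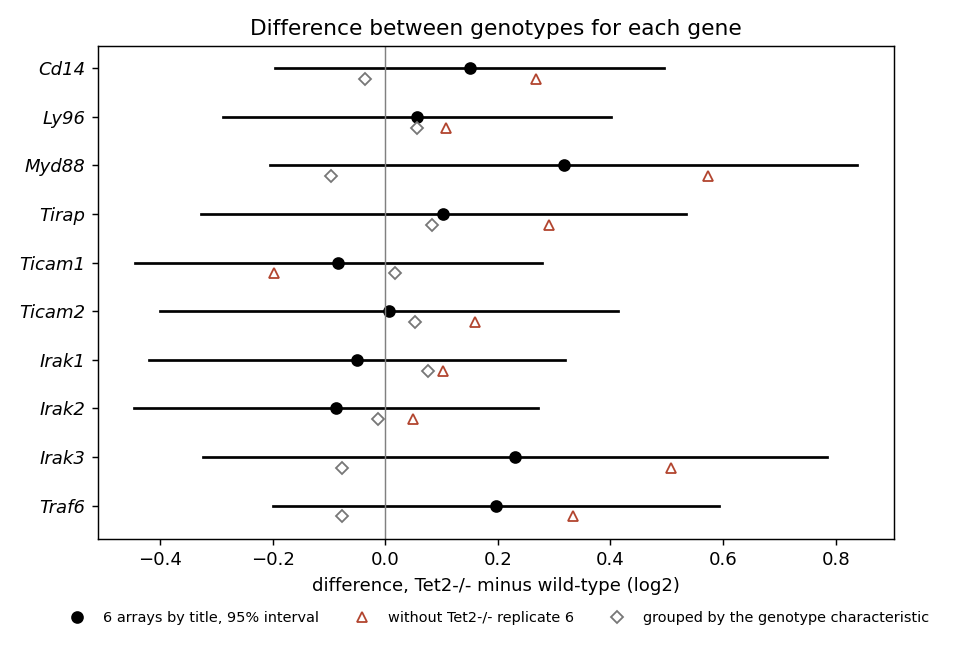
Difference in log2 expression, Tet2-/- minus wild-type (horizontal axis), for each gene, with the 95% confidence interval of the limma fit over all 6 arrays (black), the value without Tet2-/- replicate 6 (open triangles) and the value with samples grouped by the genotype characteristic (open diamonds). All 10 intervals include 0, and the triangles lie at 0.57 for Myd88 and 0.51 for Irak3.

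The means of 7 genes were higher and of 3 lower in Tet2-/- samples, where 49.2% of all probe sets were higher and 50% lower. With arrays centred on their medians or after a further quantile normalization the split was 6 to 4, Ticam2 being the gene that turned, and grouped by the characteristic it was 5 to 5. The median difference over the 10 genes was 0.08, against a median of 0 over all probe sets. Within the 95% confidence intervals, the largest changes allowed were a rise to 1.79-fold, for Myd88, and a fall to 0.734-fold, for Irak2. The number of arrays, 3 a group, limits the precision.

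The spread of the 10 genes among Tet2-/- samples depended on 1 of them. With all 6 arrays the SD was larger in Tet2-/- than in wild-type samples for 10 of 10 genes, where this holds for 63.7% of all probe sets and for 72.7% of the 7501 probe sets whose mean is at or above that of Tirap, the lowest of the 10. Without Tet2-/- replicate 6 it was larger in Tet2-/- for 4 of 10 (Ly96, Myd88, Tirap and Irak2), against 39.1% of all probe sets. The groups were then unequal in size, so this count is not on a par with that of all 6 arrays. At the same sizes, leaving out Tet2-/- replicate 4 gave 10 of 10, against 60.5% of all probe sets. Leaving out Tet2-/- replicate 5 gave 9 of 10, against 57.9%. Grouped by the characteristic the SD was larger in Tet2-/- for 5 of 10, against 42.9%. Myd88 had an SD of 0.487 in Tet2-/- and 0.150 in wild-type samples, and 0.283 in Tet2-/- without replicate 6, while for Traf6 the SDs were 0.247 and 0.220. Tet2-/- replicate 6 lay below Tet2-/- replicates 4 and 5 for 8 of 10 genes, all but Ly96 and Ticam1, against 58% of those 7501 probe sets and 32.3% of all probe sets. It was the lowest of all 6 arrays for 6 of 10 genes, against 42.5% and 21.4%. The gap between it and the mean of the other two was largest for Irak3, at -0.83, and Myd88, at -0.77, and was 0.34 for Ticam1. These shares describe where the samples stand and were not tested.

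**Figure D3:**
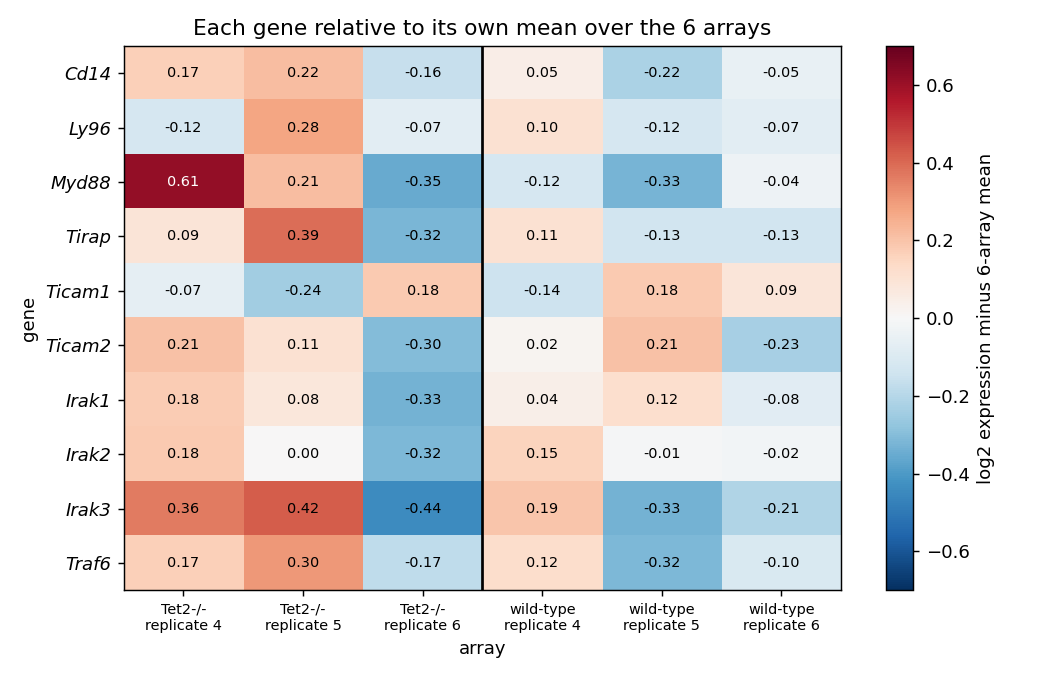
Log2 expression of each gene (rows) on each array (columns) minus that gene's own mean over the 6 arrays, in colour and in figures. Tet2-/- replicate 6 is below the 6-array mean for 9 of 10 genes, Ticam1 being the exception, and so is wild-type replicate 6. Tet2-/- replicate 5 is above it for 9 of 10, and Tet2-/- replicate 4 and wild-type replicate 4 for 8 of 10 each.

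Macrophage markers moved with the 10 genes from array to array. Relative to the 6-array mean, the 10 genes averaged 0.18, 0.18 and -0.23 in Tet2-/- replicates 4, 5 and 6, against 0.05, -0.09 and -0.09 in wild-type. The 7 macrophage markers averaged 0.20, 0.36 and -0.44 in Tet2-/- samples, against 0.17, -0.16 and -0.11 in wild-type, and their summed level on the linear scale ran from 3128 to 5516 in Tet2-/- and from 4013 to 5031 in wild-type samples. Both sets were lowest in Tet2-/- replicate 6. So were 42.5% of the 7501 probe sets whose mean is at or above that of Tirap, and the interquartile range of that array was 2.99, the narrowest. In bulk RNA, fewer cells of a type, less RNA per cell and a shift of the whole array cannot be told apart here.

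Markers of other cells also differed between the arrays. Of the 8 resident large peritoneal macrophage markers, 7 were higher in Tet2-/- samples, with a summed level of 439 to 1328 in Tet2-/- and 405 to 602 in wild-type samples. All 4 measured monocyte markers were higher, their summed level running from 236 to 559 in Tet2-/- and from 135 to 180 in wild-type. So were all 7 measured B cell markers, from 63.3 to 336 in Tet2-/- and from 53.6 to 103 in wild-type samples. The sums lean on the brightest genes. Ccr2 averaged 7.98 in Tet2-/- and 6.60 in wild-type samples, while Ly6c2 averaged 2.53 and 1.99. Of the B cell list, Ighm averaged 5.99 and 5.04, and the group means of Pax5, Ebf1 and Blk lay between 1.26 and 2.60. Grouped by the characteristic, 3 of the 8 resident, 1 of the 4 monocyte and 6 of the 7 B cell markers were higher in Tet2-/-, and the mean level turned for the resident list, at 5.81 in Tet2-/- and 5.87 in wild-type, and for the monocyte list, at 4.79 in Tet2-/- and 4.88 in wild-type. These 3 lists were highest in Tet2-/- replicate 5, followed by replicate 4, and no marker was at 0.

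Granulocyte markers stood differently. Of 5 eosinophil markers 2 were higher and 3 lower in Tet2-/- samples. Their summed level was 25.4 to 39.3 in Tet2-/- and 46.2 to 60.7 in wild-type samples, without overlap. The brightest of them was Siglecf, so the sums largely follow that gene. The group means of Epx, Prg2, Ccr3 and Il5ra lay between 1.23 and 1.98, and Il5ra was higher in every Tet2-/- sample. Siglecf, a surface lectin of eosinophils, was at 4.65, 3.58 and 4.12 in Tet2-/- samples, against 5.37, 5.58 and 5.02 in wild-type, a difference of -1.21 (limma adjusted p = 0.879). Siglecf and Il5ra were named after their values were seen. Of 6 neutrophil markers 4 were higher and 2 lower, with a summed level of 77.7, 106 and 174 in Tet2-/- replicates 4, 5 and 6, against 96.4 to 111 in wild-type samples. These sums largely follow S100a8, at 5.79, 6.42 and 7.19 in Tet2-/- replicates 4, 5 and 6. The group means of S100a9, Ly6g, Cxcr2, Camp and Ngp lay between 1.34 and 2.71. The highest sum was that of Tet2-/- replicate 6, in which the mean of the 10 genes was lowest. Without that sample 2 neutrophil markers were higher and 4 lower. By the characteristic, 3 of 5 eosinophil and 2 of 6 neutrophil markers were higher in Tet2-/-, and the eosinophil sums overlapped. The part of all these lists, and of the macrophage markers, in the values of the 10 genes was not tested.

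**Figure D4:**
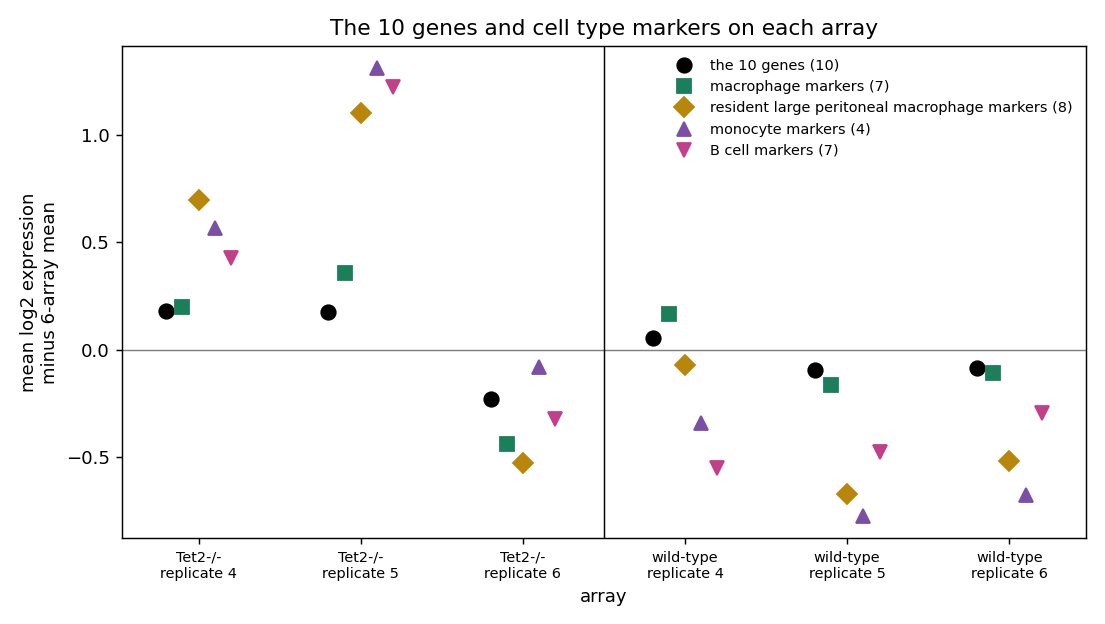
Mean log2 expression minus the 6-array mean (vertical axis) of the 10 genes and of 4 lists of cell type markers on each array, with the number of genes measured in brackets. The 10 genes and the macrophage markers are lowest in Tet2-/- replicate 6, at -0.23 and -0.44.

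Without Tet2-/- replicate 6 none of the 10 genes passed an adjusted p of 0.05 with limma, while 19 of all probe sets did. Of the 10 genes, 4 then had groups that did not overlap, all higher in Tet2-/- (Cd14, Myd88, Irak3 and Traf6). Of all probe sets, 25.7% did not overlap with 5 arrays, a share that counts both directions. Myd88 and Irak3 had an unadjusted p under 0.05, where 9.87% of all probe sets did, and the smallest adjusted p among the 10 was 0.344, for Myd88. The means of 9 genes were then higher, Ticam1 again excepted and Irak1 and Irak2 having turned, with a median difference of 0.21. Without Tet2-/- replicate 5, in contrast, 5 genes were higher and 5 lower, with a median of -0.01.

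Other genes of the pathway were taken from 6 lists, of which 65 of 70 genes were measured. None passed an adjusted p of 0.05 with limma, and 7 had an unadjusted p under 0.05, 4 higher, where 1.71% of all probe sets were, and 3 lower, where 1.9% were. The means of 41 were higher in Tet2-/- samples, 23 lower and 1 equal, with a median of 0.07. Groups did not overlap for 1 gene that was higher, where 3.33% of all probe sets were, and for 3 that were lower, where 4.07% were. The count of 7 became 14 without Tet2-/- replicate 6, 12 with array weights, 3 without Tet2-/- replicate 5 or wild-type replicate 5, and 0 grouped by the characteristic.

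Among the 12 Toll-like receptors, 10 were higher and 2 lower, with 1 in each direction at an unadjusted p under 0.05. Tlr6, which pairs with Tlr2, was at 3.88, 3.82 and 2.91 in Tet2-/- samples, against 4.89, 4.77 and 4.68 in wild-type, so that every Tet2-/- sample was lower (limma adjusted p = 0.756). Tlr2, at 6.67, 7.51 and 6.31 in Tet2-/- and 6.49, 5.99 and 5.94 in wild-type samples, overlapped, and its difference of 0.69 was 0.35 without Tet2-/- replicate 5. Of 7 accessory and trafficking proteins, 6 were higher and 1 lower. Lbp, which carries lipopolysaccharide to Cd14, was at 4.87, 5.28 and 3.71 in Tet2-/- samples, against 3.99, 3.42 and 3.38 in wild-type. The Lbp difference was 1.02 (interval 0.20 to 1.84), and it did not pass (limma adjusted p = 0.998). It ran from 0.69 without Tet2-/- replicate 5 to 1.48 without Tet2-/- replicate 6. Its sign turned when samples were grouped by the characteristic, to -0.16, as did that of Tlr6, to 0.53, and of Tlr2, to -0.01.

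Downstream kinases, ubiquitin enzymes and interferon regulatory factors were split, with 9 of 17 higher and 8 lower, 0 at an unadjusted p under 0.05 and a median of 0.02. The smallest p there belonged to Peli1, a ubiquitin ligase that acts on IRAK kinases, at a difference of 0.29 (limma unadjusted p = 0.121), which ran from 0.16 without Tet2-/- replicate 5 to 0.41 without Tet2-/- replicate 6. Of 11 inhibitors, 5 were higher and 6 lower. Atf3, a transcriptional repressor of inflammatory genes, was at 9.39, 9.15 and 9.39 in Tet2-/- samples, against 9.68, 9.84 and 9.80 in wild-type, all lower (difference -0.46, limma adjusted p = 0.998). Dusp1, a MAP kinase phosphatase, differed by -0.48, or -0.71 without Tet2-/- replicate 4, and overlapped. Nfkbia, the inhibitor that NF-kB induces, was higher in every Tet2-/- sample than in any wild-type sample (difference 0.24, limma unadjusted p = 0.101). The accessory scavenger receptor Cd36 was lower in every one (difference -0.22, limma unadjusted p = 0.121). Nfkbia and Cd36 were named after their values were seen.

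Targets of both branches were mixed in direction. Of 10 genes induced mainly through Myd88, 5 were higher, 4 lower and 1 equal. The chemokine Cxcl2 differed by 0.85 and the interleukin-1 beta gene Il1b by 0.75. Both had overlapping groups and a limma adjusted p of 0.998. The Il1b difference was 0.41 without Tet2-/- replicate 5. Of 8 genes induced mainly through Ticam1, 6 were higher and 2 lower, none at an unadjusted p under 0.05. Rsad2, an antiviral enzyme, had the smallest p there, at a difference of -0.34 (limma unadjusted p = 0.119), which ran from -0.53 without wild-type replicate 6 to -0.14 without wild-type replicate 5. By the characteristic the signs of Peli1, Dusp1, Atf3, Cd36, Il1b and Rsad2 also turned. Many of these targets lay low on the scale. Group means ran from 1.26 to 3.03 for Ifnb1, Ifit1, Ifit2, Ifit3, Cxcl10 and Isg15 of the Ticam1 list. They ran from 1.72 to 1.93 for Il6 and Il12b of the Myd88 list. Cxcl2 and Il1b were also low, at 3.81 and 3.85 in Tet2-/- and 2.96 and 3.10 in wild-type samples. Whether the 2 lists differed from each other was not tested.

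Irak3 varied most over the 6 arrays among the 10 genes, with an SD of 0.371. The 3 named genes whose mean-centred values lay nearest to it over the 6 arrays were Fam117b, Il6ra and Rnf167, with root mean square differences of 0.0362, 0.0495 and 0.0521 log2 units. Il6ra, the interleukin-6 receptor chain, was at 7.0, 6.99 and 6.11 in Tet2-/- samples, against 6.85, 6.28 and 6.31 in wild-type, again with Tet2-/- replicate 6 lowest. With 6 arrays and 25206 probe sets such likeness is a description of these samples.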

How the data were processed

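RNA of 6 macrophage samples was measured on Affymetrix whole-transcript arrays. The deposited table holds log2 expression values that the authors obtained by RMA; the submitters' processing notes name affy 1.36.1. That method removes background, brings arrays to common quantiles and combines the probes of a set. The log2 scale was read from the values and from RMA, and whether the arrays were normalized together is not stated in the labels. RMA compresses differences near background, so those of dim genes may be understated. Of 25206 probe sets, the platform annotation named 23185, all found by gene identifier in RefSeq (GRCm38.p6). Promoter sequences are RefSeq's.

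Tet2-/- and wild-type samples were compared with limma 3.58.1 in R 4.3.3 (lmFit, eBayes, two-sided) over all probe sets, with Benjamini-Hochberg adjustment and a threshold of 0.05. Named were the 10 genes, Tet2, per pathway list the largest differences at an unadjusted p under 0.05 or else the smallest p, and the 3 genes nearest in pattern to the most variable of the 10. The genes and lists were chosen with earlier results of these data known. The fit was tested on simulated data. Alternatives were the grouping by characteristic, a replicate block, an intensity trend, array weights, 2 other scalings, brighter probe sets, a threshold of 0.1 and leaving out each array. The alternatives for the SDs and the cell type markers were chosen after seeing the data.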

Additional observations from a re-analysis of the deposited data

How the results depend on the processing

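No gene of the 10 passed an adjusted p of 0.05 under any of the 13 alternatives. Over all probe sets 0 passed, and 2 with array weights, 0 to 19 when single arrays were left out (19 when Tet2-/- replicate 6 and 1 when wild-type replicate 4 was dropped) and 0 at a threshold of 0.1. The 910 at an unadjusted p under 0.05 became 413 by the characteristic, 2088 with array weights, 461 among brighter probe sets (fewer were tested) and 632 to 2489 without single arrays. Of the 10 genes, 2 reached an unadjusted p under 0.05 with array weights, and 0 to 2 without single arrays, where 0 to 4 had groups that did not overlap. Their SD was larger in Tet2-/- for 10 genes, for 5 by the characteristic and for 4 to 10 without single arrays. Their median difference was -0.01 to 0.21 without single arrays. Of the other pathway genes 0 reached it by the characteristic, 12 with array weights and 3 to 14 without single arrays. By the characteristic the sign turned for Cd14 (-0.037), Myd88 (-0.097), Ticam1 (0.017), Irak1 (0.077), Irak3 (-0.077), Traf6 (-0.077), Tlr2 (-0.01), Tlr6 (0.53), Lbp (-0.16), Peli1 (-0.027), Dusp1 (0.013), Atf3 (0.11), Il1b (-0.01), Rsad2 (0.047), Tlr4 (-0.087) and Cd36 (0.083). It turned with array weights for Irak1 (0.079) and Irak2 (0.033), and with arrays centred on medians or quantile-normalized for Ticam2 (-0.018 and -0.0044). Leaving out single arrays gave -0.067 to 0.13 for Ly96, -0.065 to 0.29 for Tirap, -0.20 to 0.018 for Ticam1, -0.11 to 0.16 for Ticam2, -0.15 to 0.10 for Irak1, -0.20 to 0.05 for Irak2, -0.21 to 0.25 for Tlr4 and -0.23 to 0.075 for Tet2. The cause of these turns was not tested. Deviations of same-numbered samples correlated at 0.15, -0.22 and 0.11 for replicates 4, 5 and 6. Those of differently numbered samples correlated at -0.36 to 0.36. With 3 arrays a group, these values cannot decide whether the replicate numbers pair the samples. With the replicate number as a block 0 probe sets passed, 897 had an unadjusted p under 0.05, 0 of the 10 genes did, and 7 were higher, with a median of 0.08. Values near background could not be judged, since no detection call was used here.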
